A study of Homo sapiens with 9 samples.

Results

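The integrins, laminins and focal adhesion genes described here are 43 genes chosen by name: chains of the integrins and laminins, syndecans, tetraspanins, further adhesion molecules and proteins of the focal adhesion. The arrays measured 42 of the 43, with 95 probe sets that name 1 of these genes each, among 22215 human probe sets and 11963 genes in all. BCAR1, which encodes a docking protein of focal adhesions, was not analysed here.

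MDA-MB-231 is a human mammary gland line of adherent epithelial cells, and the study set 2 taxane-resistant lines of it against sensitive cells on Affymetrix HU133A arrays. The paclitaxel-resistant line was grown with 7 nM paclitaxel and 1 µM verapamil, the docetaxel-resistant line with 2 nM docetaxel and 1 µM verapamil, and the sensitive cells with 1 µM verapamil and no taxane, with 3 arrays from 3 passages in each group. Verapamil blocks calcium channels and the drug efflux pump P-glycoprotein, and it was present in every group, and the taxanes, which stabilise microtubules, were present when the resistant cells were harvested. Each resistance is represented by 1 line, so line, drug and dose cannot be told apart, and errors and p-values measure the spread between passages of a line.

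Integrins are surface receptors that join an alpha and a beta chain and tie the extracellular matrix to the actin cytoskeleton. Laminins, the main matrix proteins of basement membranes, join an alpha, a beta and a gamma chain and are bound by integrins and syndecans, while tetraspanins hold integrins in membrane clusters. Inside the cell, talin and vinculin link engaged integrins to actin, and focal adhesion kinase and paxillin pass the signal on.

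The deposited values are probe set intensities, and 1 probe set per gene, that of the highest mean, stands for the gene in what follows. A difference is given on the log2(intensity + 16) scale with its standard error, from limma with Benjamini-Hochberg adjustment over all 11963 genes, and a gene is said to have risen or fallen where its adjusted p was under 0.05. Array medians lay between 33.7 (sensitive replicate 2) and 43.9 (docetaxel-resistant replicate 3) before normalization. The arrays of a group correlated with r between 0.970 and 0.991, and arrays of different groups with r between 0.898 and 0.980. The epithelial keratins KRT8, KRT18 and KRT19 averaged at least 994 in every group and were not called in any comparison with the sensitive cells, whereas EPCAM, another epithelial surface marker, averaged 14.3, 14.8 and 22.1 in paclitaxel-resistant, docetaxel-resistant and sensitive cells, below the median intensity of 38.8. Of the other markers in the list of 12 luminal breast genes, TFF3, AGR2 and FOXA1 rose in both lines, by 4.02 and 2.37, by 1.05 and 0.80 and by 1.02 and 0.78 in paclitaxel-resistant and docetaxel-resistant cells, TFF1 rose by 2.55 in paclitaxel-resistant cells, and the summed list lay at 7204 to 7909 in paclitaxel-resistant, 6630 to 7588 in docetaxel-resistant and 6270 to 7458 in sensitive cells. The leukocyte marker PTPRC averaged 7.80, 9.90 and 9.29, and the endothelial markers CDH5 and VWF at most 5.43, in the groups in the same order. PECAM1, another of the 5 endothelial markers, fell by 1.02 in each resistant line, and no other endothelial marker was called. LCP1, an actin bundling protein of leukocytes and 1 of 8 blood markers, rose by 1.28 in paclitaxel-resistant and 4.18 in docetaxel-resistant cells, no other blood marker was called against sensitive cells, and the summed list lay at 2418 to 2731, 3405 to 3864 and 2204 to 3376. Summed over their lists, 5 endothelial markers lay at 77.7 to 108 in paclitaxel-resistant, 91.5 to 99.4 in docetaxel-resistant and 122 to 180 in sensitive cells, and 11 fibroblast markers at 416 to 521, 555 to 711 and 392 to 426. Their part in the results was not tested.

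In paclitaxel-resistant against sensitive cells, 12 of the 42 genes rose and 7 fell, which is 45.2% of them, where 21.6% of all genes were called. In docetaxel-resistant against sensitive cells, 6 rose and 7 fell, which is 31.0% of them, where 21.1% of all genes were called. The 42 genes were chosen with earlier results of these data known, and only 7 lay below the median intensity in every group. These shares therefore do not test whether adhesion genes changed more often than others. Both comparisons use the same 3 sensitive arrays. The 6 genes that rose in both were the laminin receptor chain ITGA6, the laminin gamma chain LAMC1, the tetraspanin CD151, the adhesion molecule MCAM, the syndecan SDC2 and the kinase PTK2. The 5 that fell in both were the fibronectin receptor chain ITGA5, the leukocyte integrin chain ITGB2, the laminin beta chain LAMB1, the adhesion molecule L1CAM and the scaffold ILK. No gene rose in one line and fell in the other. After normalization the paclitaxel-resistant arrays all lay on the same side of the sensitive ones for 22 of the 42 genes, beside 34.8% of all genes, and the docetaxel-resistant arrays did so for 17, beside 37% of all genes. The median difference of the 42 genes was 0.01 in paclitaxel-resistant minus sensitive cells, beside -0.02 for all genes, and -0.07 in docetaxel-resistant minus sensitive cells, beside -0.05 for all genes. In paclitaxel-resistant against docetaxel-resistant cells, 1 of the 42 genes was called, the integrin chain ITGB4, where 1.99% of all genes were called. The arrays of the resistant lines did not overlap for 14 of the 42 genes, beside 20.5% of all genes. An unadjusted p under 0.05 was reached by 20 of the 42 genes in paclitaxel-resistant and 20 in docetaxel-resistant against sensitive cells and by 10 between the lines, beside 32.5%, 32.7% and 13.1% of all genes. Of all 22215 probe sets taken singly, 18.6%, 17.7% and 1.6% were called in the 3 comparisons. Without normalization between arrays, LAMA5 and LAMB2 were also called higher in docetaxel-resistant against sensitive cells, and ITGB4 lost its call there.

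**Figure D1:**
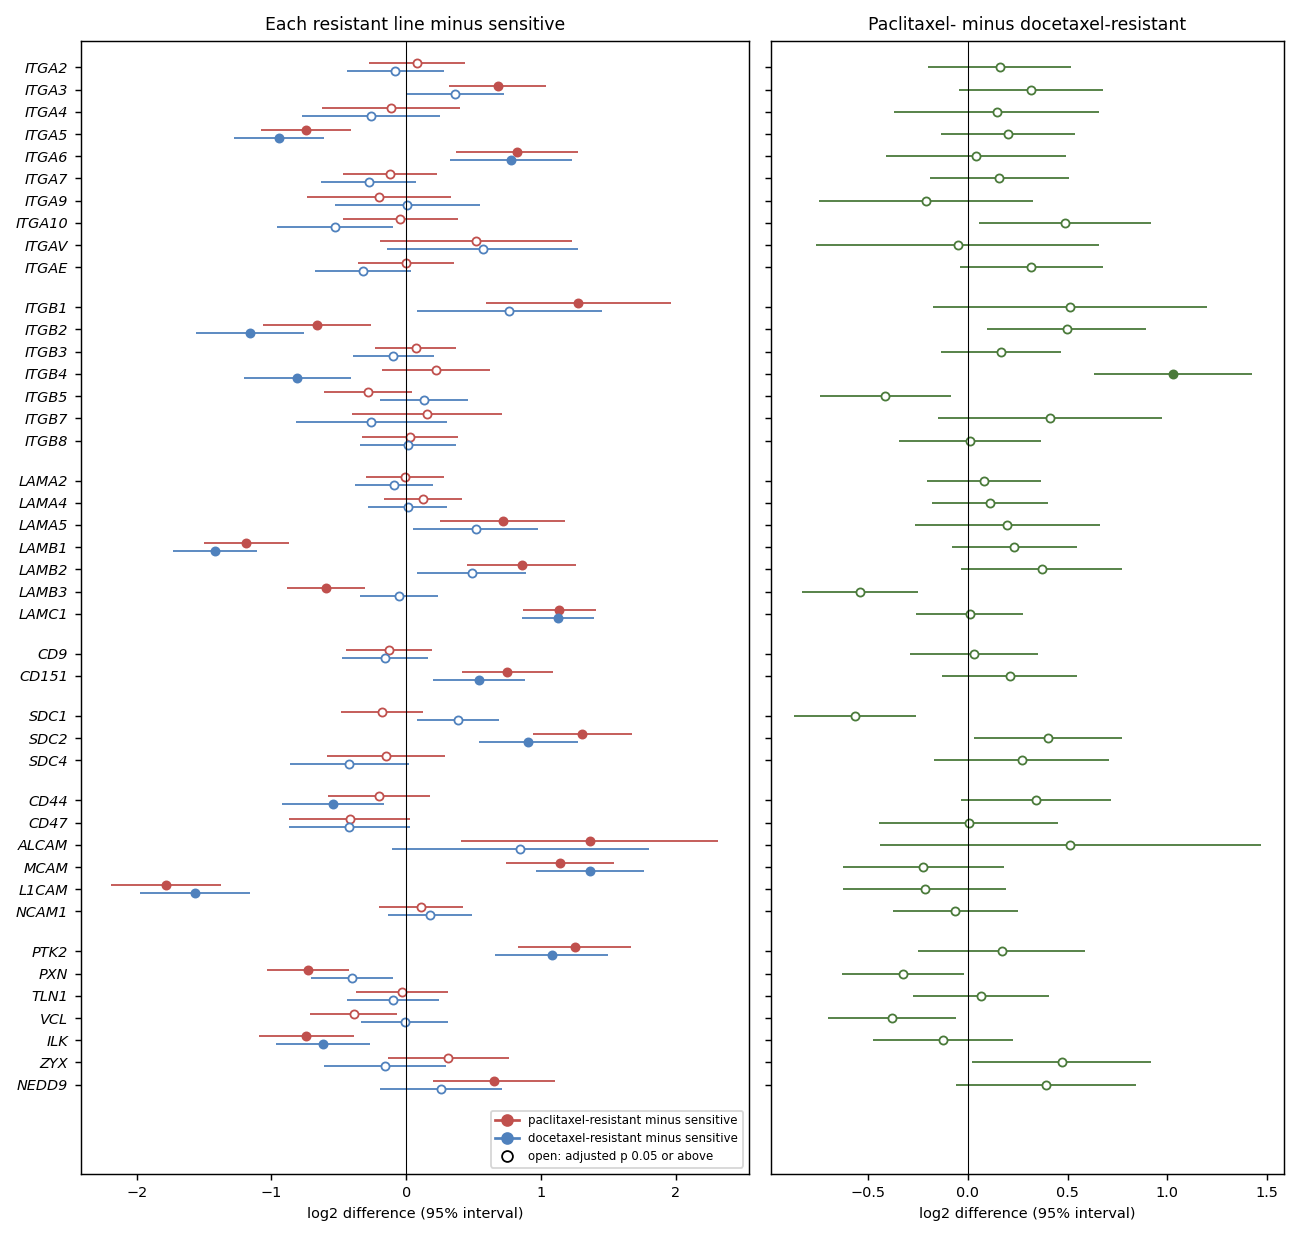
Log2 differences of the 42 measured adhesion genes, grouped by role, with 95% intervals. The left panel sets the paclitaxel-resistant (red) and docetaxel-resistant (blue) lines against sensitive cells, the right panel the paclitaxel-resistant line against the docetaxel-resistant line, and filled points have an adjusted p under 0.05. LAMB1 and L1CAM lie at the left and LAMC1, MCAM, SDC2 and PTK2 at the right in both lines, while ITGB4 is the only filled point on the right.

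Among the 10 integrin alpha chains, ITGA3 and ITGA6 rose and ITGA5 fell in paclitaxel-resistant cells, and ITGA6 rose and ITGA5 fell in docetaxel-resistant cells. ITGA5, which pairs with ITGB1 in the main fibronectin receptor, had intensities of 125, 141 and 138 in paclitaxel-resistant and 113, 146 and 124 in docetaxel-resistant cells, against 235, 215 and 243 in sensitive cells. All 6 resistant arrays lay below all 3 sensitive arrays. The difference was -0.74 ± 0.15 in paclitaxel-resistant cells (adjusted p = 0.00489) and -0.94 ± 0.15 in docetaxel-resistant cells (adjusted p = 0.00131), each set against sensitive cells, and with 64 in place of 16 added the second was -0.62.

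ITGA6 pairs with ITGB1 or ITGB4 in laminin receptors. Its intensities were 267, 206 and 166 in paclitaxel-resistant and 165, 220 and 296 in docetaxel-resistant cells, against 144, 66.3 and 130 in sensitive cells. No resistant array overlapped the sensitive ones, although the arrays within each group were spread widely. The difference was 0.82 ± 0.21 (adjusted p = 0.0145) in paclitaxel-resistant and 0.78 ± 0.21 (adjusted p = 0.0193) in docetaxel-resistant cells, each minus sensitive. A second ITGA6 probe set rose in both lines as well, by 0.54 (adjusted p = 0.0181) and 0.74 (adjusted p = 0.00364), but at the gene level the call was lost without paclitaxel-resistant replicate 1 (adjusted p = 0.0586) or 2 (adjusted p = 0.0533) in that line and without docetaxel-resistant replicate 3 (adjusted p = 0.0851) or sensitive replicate 2 (adjusted p = 0.0681) in the other. Over all alternatives its adjusted p ran between 0.000388 and 0.0865 in paclitaxel-resistant and between 0.000571 and 0.187 in docetaxel-resistant cells.

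ITGA3, a laminin receptor chain that pairs with ITGB1, averaged 846 ± 89.2 in paclitaxel-resistant, 706 ± 72.6 in docetaxel-resistant and 519 ± 88.3 in sensitive cells (SD, n = 3 each). The difference from sensitive cells passed the threshold in paclitaxel-resistant cells, at 0.68 ± 0.16 (adjusted p = 0.0119), and was 0.36 ± 0.16 in docetaxel-resistant cells (adjusted p = 0.150, 95% interval 0.00 to 0.72). Without paclitaxel-resistant replicate 3 its adjusted p was 0.0512, the highest of its alternatives, which began at 0.00307. The collagen receptor chain ITGA2 differed from sensitive cells by 0.08 in paclitaxel-resistant (95% interval -0.28 to 0.44) and by -0.08 in docetaxel-resistant cells (-0.44 to 0.28). ITGA10, another collagen receptor chain, had differences of -0.04 and -0.53 (adjusted p = 0.0799) in the lines in that order, and ITGAE, which binds E-cadherin, of 0.00 and -0.32. ITGAV, the chain of the vitronectin receptors, averaged 28.2 ± 26.8 in paclitaxel-resistant, 28.3 ± 17.4 in docetaxel-resistant and 11.1 ± 1.63 in sensitive cells (SD, n = 3 each), below the median intensity, and was not called. ITGA4, ITGA7 and ITGA9 also lay below the median intensity in every group.

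Of the 7 integrin beta chains, ITGB1 rose and ITGB2 fell in paclitaxel-resistant cells, and ITGB2 and ITGB4 fell in docetaxel-resistant cells. ITGB1, the partner of most alpha chains named here, had intensities of 1167, 659 and 685 in paclitaxel-resistant and 389, 608 and 888 in docetaxel-resistant cells, against 580, 236 and 242 in sensitive cells. The paclitaxel-resistant arrays all lay above the sensitive ones, while the docetaxel-resistant arrays overlapped them through sensitive replicate 1. The difference from sensitive cells was 1.28 ± 0.31 in paclitaxel-resistant cells (adjusted p = 0.0127) and 0.77 ± 0.31 in docetaxel-resistant cells (adjusted p = 0.111, 95% interval 0.08 to 1.45), and the lines differed from each other by 0.51 ± 0.31 (adjusted p = 0.562).

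The ITGB1 result rests on 1 probe set, of a design that can match several transcripts, since the other 4 ITGB1 probe sets averaged at most 22.8 in any group and none was called, the 1 used when shared probe sets were left out having a difference of -0.28 in paclitaxel-resistant cells. The call was lost without paclitaxel-resistant replicate 1 (adjusted p = 0.0556) or sensitive replicate 3 (adjusted p = 0.0569), within a range of 0.000358 to 0.248 over all alternatives. ITGB1 and ITGA6 were high in the same arrays of a group. Over the 9 arrays, deviations from group means followed the first axis of within-group variation over all genes, which held 43.4% of that variation, with r = 0.83 for ITGB1, 0.93 for ITGA6, 0.90 for PTK2 and 0.70 for ALCAM, and with r = -0.82 for ITGA5, -0.82 for CD44 and -0.87 for PXN. That axis had positive values in paclitaxel-resistant replicate 1 (0.37), docetaxel-resistant replicate 3 (0.46) and sensitive replicates 1 (0.45) and 3 (0.06). Its values were negative in the other arrays, and the value largest in size was that of sensitive replicate 2 (-0.51). The part of the axis in the results was not tested. A fit that holds it as a covariate was chosen after seeing the data. It called the same genes of the 42 in paclitaxel-resistant against sensitive cells. In docetaxel-resistant against sensitive cells it also called ITGA10, ITGB1, LAMA5, LAMB2 and PXN. The share of all genes called in that fit is not set beside these calls. The axis was taken from the same deviations, so that fit left each difference unchanged and took the axis out of the spread. Its calls therefore do not test the part of the axis.

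ITGB2, the beta chain of leukocyte integrins, had intensities of 69.3, 50.1 and 38.5 in paclitaxel-resistant and 44.1, 29.2 and 26.0 in docetaxel-resistant cells, against 79.4, 76.7 and 92.8 in sensitive cells. Every resistant array was below every sensitive array. The fall was -0.66 ± 0.18 in paclitaxel-resistant cells (adjusted p = 0.0228) and -1.16 ± 0.18 in docetaxel-resistant cells (adjusted p = 0.00111), and the lines themselves differed by 0.50 ± 0.18 (adjusted p = 0.228). With 64 added the differences from sensitive cells were -0.34 and -0.60. In the paclitaxel-resistant comparison the call was lost without paclitaxel-resistant replicate 2 or 3 or sensitive replicate 2 or 3, and its adjusted p ran between 0.0121 and 0.0906 over the alternatives. In bulk RNA, fewer cells that express a gene and less of its RNA per cell cannot be told apart, and the leukocyte marker PTPRC differed from sensitive cells by -0.10 and 0.01 in paclitaxel-resistant and docetaxel-resistant cells. LCP1, the called blood marker, rose in both lines while ITGB2 fell, and the part of blood markers in the ITGB2 result was not tested.

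ITGB4, which pairs with ITGA6 in hemidesmosomes, had intensities of 185, 190 and 278 in paclitaxel-resistant and 98.9, 116 and 108 in docetaxel-resistant cells, against 213, 129 and 200 in sensitive cells. The docetaxel-resistant arrays lay below all others, and the paclitaxel-resistant arrays overlapped the sensitive ones. The difference was 1.03 ± 0.18 for paclitaxel-resistant minus docetaxel-resistant (adjusted p = 0.0160), -0.81 ± 0.18 for docetaxel-resistant minus sensitive (adjusted p = 0.00831) and 0.22 ± 0.18 for paclitaxel-resistant minus sensitive (adjusted p = 0.457, 95% interval -0.18 to 0.62). The other 3 ITGB4 probe sets had smaller differences between the lines, of 0.53, 0.40 and 0.18, and none of those passed the threshold (adjusted p = 0.425, 0.636 and 0.763). The call between the lines was lost without any 1 of the 3 docetaxel-resistant arrays or without paclitaxel-resistant replicate 2 or 3, and its adjusted p ran between 0.00593 and 0.789 over the alternatives. The fall from sensitive in docetaxel-resistant cells was lost in 4 of 22 alternatives, with adjusted p between 0.00375 and 0.573.

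The remaining beta chains were not called at the gene level. ITGB3, the beta chain of a vitronectin receptor, differed from sensitive cells by 0.07 in paclitaxel-resistant and -0.10 in docetaxel-resistant cells, although 1 of its 6 further probe sets fell by 0.50 (adjusted p = 0.0303) and by 0.69 (adjusted p = 0.00592) in the same order. ITGB5, another partner of ITGAV, differed by -0.28 and 0.13, and 2 further probe sets of it fell in paclitaxel-resistant cells by 0.73 (adjusted p = 0.0129) and 0.53 (adjusted p = 0.0364). ITGB7, a lymphocyte integrin chain, differed by 0.16 and -0.26, and ITGB8 lay below the median intensity in every group.

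**Figure D2:**
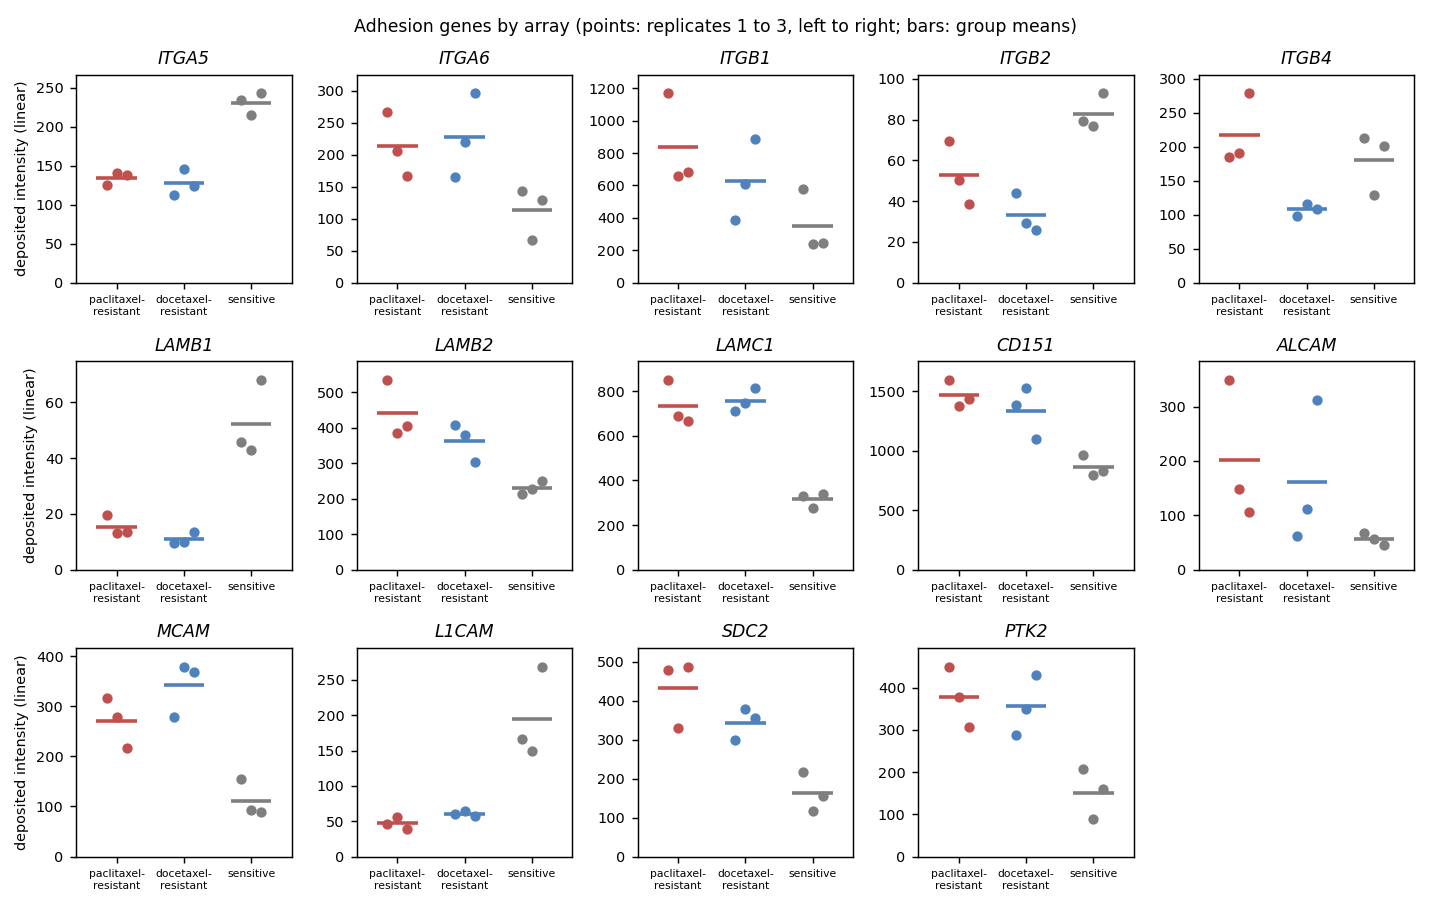
Deposited intensity of 14 adhesion genes in each of the 9 arrays, on a linear scale that starts at 0 in each panel. Points are replicates 1 to 3 of paclitaxel-resistant, docetaxel-resistant and sensitive cells and bars are group means; LAMC1, MCAM and SDC2 show resistant arrays above all sensitive ones, L1CAM and LAMB1 show them below, and ALCAM and ITGB1 show a wide spread within groups.

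Laminin chains moved in opposite directions: LAMA5, LAMB2 and LAMC1 rose and LAMB1 and LAMB3 fell among the 7 chains measured in paclitaxel-resistant cells, and LAMC1 rose and LAMB1 fell in docetaxel-resistant cells. LAMC1 encodes the gamma chain of most laminins, and LAMB1 and LAMB2 encode beta chains that take the same place in the heterotrimer. LAMC1 had intensities of 849, 688 and 667 in paclitaxel-resistant and 711, 747 and 813 in docetaxel-resistant cells, against 330, 278 and 340 in sensitive cells. The lowest resistant array lay well above the highest sensitive one.

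The LAMC1 difference was 1.14 ± 0.12 in paclitaxel-resistant (adjusted p = 8.17e-05) and 1.13 ± 0.12 in docetaxel-resistant cells (adjusted p = 0.000101), each minus sensitive. A second LAMC1 probe set gave 0.61 (adjusted p = 0.0172) and 0.45 (adjusted p = 0.0708). LAMB1 had intensities of 19.6, 13.1 and 13.4 in paclitaxel-resistant and 9.53, 9.94 and 13.6 in docetaxel-resistant cells, against 45.8, 42.8 and 67.8 in sensitive cells, so that it lay above the median intensity of all arrays in sensitive cells and far below it in both resistant lines. Its difference was -1.19 ± 0.14 (adjusted p = 0.000192) in paclitaxel-resistant and -1.42 ± 0.14 (adjusted p = 5.9e-05) in docetaxel-resistant cells. At this low level the size depends on the constant added before the logarithm, and with 1 in place of 16 it was -1.79 and -2.28, and with 64 it was -0.54 and -0.62, in the lines in that order. A second LAMB1 probe set fell by 0.75 (adjusted p = 0.00221) and 0.84 (adjusted p = 0.00121).

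LAMB2 had intensities of 534, 384 and 405 in paclitaxel-resistant and 408, 379 and 302 in docetaxel-resistant cells, against 212, 228 and 251 in sensitive cells. All 6 resistant arrays exceeded the 3 sensitive ones as deposited. After normalization the docetaxel-resistant arrays overlapped the sensitive ones. The difference was 0.86 ± 0.18 in paclitaxel-resistant cells (adjusted p = 0.00632) and 0.49 ± 0.18 in docetaxel-resistant cells (adjusted p = 0.0857, 95% interval 0.09 to 0.89). LAMA5, the alpha chain of widely expressed basement membrane laminins, averaged 742 ± 166 in paclitaxel-resistant, 659 ± 22.2 in docetaxel-resistant and 434 ± 88.4 in sensitive cells (SD, n = 3 each), with a difference from sensitive cells of 0.72 ± 0.21 (adjusted p = 0.0313) in paclitaxel-resistant and 0.52 ± 0.21 (adjusted p = 0.111) in docetaxel-resistant cells. Its call was lost without sensitive replicate 1 or paclitaxel-resistant replicate 2 or 3 and its adjusted p ran between 0.00649 and 0.124. LAMB3, the beta chain of the epithelial laminin of hemidesmosomes, fell in paclitaxel-resistant cells by 0.59 ± 0.13 (adjusted p = 0.00739) and differed by -0.05 ± 0.13 in docetaxel-resistant cells (adjusted p = 0.824). The LAMB3 difference between the resistant lines was -0.54 ± 0.13 (adjusted p = 0.0655) and did not pass the threshold. LAMA4, a chain of vessel wall laminins, differed by 0.12 and 0.01, and LAMA2, a muscle laminin chain, lay below the median intensity in every group.

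CD151, a tetraspanin that binds laminin receptors directly, had intensities of 1594, 1379 and 1433 in paclitaxel-resistant and 1389, 1532 and 1096 in docetaxel-resistant cells, against 965, 796 and 827 in sensitive cells. No resistant array overlapped a sensitive one. The difference was 0.75 ± 0.15 (adjusted p = 0.0049) in paclitaxel-resistant and 0.54 ± 0.15 (adjusted p = 0.0278) in docetaxel-resistant cells, and in docetaxel-resistant cells the call was lost without sensitive replicate 1 or 3 or docetaxel-resistant replicate 1 or 2 (adjusted p between 0.00663 and 0.110 over the alternatives). CD9, the other tetraspanin of the set, averaged 2358 ± 519, 2341 ± 67.0 and 2631 ± 210 in paclitaxel-resistant, docetaxel-resistant and sensitive cells (SD, n = 3 each), and its difference from sensitive cells was -0.13 (95% interval -0.45 to 0.19) and -0.16 (-0.48 to 0.16) in the resistant lines.

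Syndecans carry heparan sulphate chains and act as co-receptors of integrins for matrix proteins. SDC2 had intensities of 478, 330 and 486 in paclitaxel-resistant and 299, 378 and 354 in docetaxel-resistant cells, against 217, 116 and 156 in sensitive cells. Every resistant array was above the highest sensitive array. The difference was 1.31 ± 0.17 (adjusted p = 0.000295) in paclitaxel-resistant and 0.91 ± 0.17 (adjusted p = 0.00291) in docetaxel-resistant cells, each minus sensitive. Another SDC2 probe set rose by 1.32 (adjusted p = 0.000772) and 0.89 (adjusted p = 0.00841) in the same order. The remaining SDC2 probe set rose by 0.75 in paclitaxel-resistant cells (adjusted p = 0.0074) and differed by 0.30 in docetaxel-resistant cells (adjusted p = 0.264). SDC1 averaged 222 ± 46.9 in paclitaxel-resistant, 359 ± 44.4 in docetaxel-resistant and 248 ± 46.1 in sensitive cells (SD, n = 3 each) and was not called, its difference between the resistant lines being -0.56 ± 0.14 (adjusted p = 0.0679). SDC4, a syndecan found in focal adhesions, differed from sensitive cells by -0.15 and -0.42 in paclitaxel-resistant and docetaxel-resistant cells and was not called.

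Of the 6 further adhesion molecules, MCAM and ALCAM rose and L1CAM fell in paclitaxel-resistant cells, and MCAM rose and L1CAM and CD44 fell in docetaxel-resistant cells. MCAM, an immunoglobulin family molecule of endothelial and melanoma cells, had intensities of 316, 278 and 217 in paclitaxel-resistant and 279, 378 and 369 in docetaxel-resistant cells, against 155, 92.5 and 88.2 in sensitive cells. All 6 resistant arrays lay above the 3 sensitive ones, and the difference was 1.14 ± 0.18 (adjusted p = 0.00117) in paclitaxel-resistant and 1.37 ± 0.18 (adjusted p = 0.000396) in docetaxel-resistant cells. The MCAM result rests on 1 probe set, of a design that can match several transcripts or genes. A further 4 probe sets that name MCAM together with a microRNA gene were not used. Of the melanocytic markers, the transcription factor MITF rose in both lines, by 2.17 and 2.03, while PMEL, TYR, TYRP1, MLANA and SOX10 were not called, and of the endothelial markers PECAM1 fell by 1.02 in each, values whose part in the MCAM result was not tested.

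L1CAM, an immunoglobulin family molecule best known from neurons, had the lowest difference of all 42 genes in each resistant line. Its intensities were 46.3, 56.2 and 38.5 in paclitaxel-resistant and 59.8, 65.2 and 57.7 in docetaxel-resistant cells, against 167, 149 and 268 in sensitive cells. The highest resistant array lay below the lowest sensitive one. The difference was -1.78 ± 0.19 (adjusted p = 6.28e-05) in paclitaxel-resistant and -1.57 ± 0.19 (adjusted p = 0.000175) in docetaxel-resistant cells, with 64 added it was -1.19 and -1.02, and with the mean of the L1CAM probe sets -0.89 and -0.90. A second L1CAM probe set of low intensity differed by 0.00 and -0.23 and was not called.

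ALCAM, an immunoglobulin family molecule that binds itself and CD6, had intensities of 348, 148 and 106 in paclitaxel-resistant and 61.8, 112 and 312 in docetaxel-resistant cells, against 67.3, 55.5 and 46.1 in sensitive cells. Replicate 1 of the paclitaxel-resistant and replicate 3 of the docetaxel-resistant cells stood far above the others of their groups. The difference was 1.36 ± 0.44 in paclitaxel-resistant cells (adjusted p = 0.0445) and 0.85 ± 0.44 in docetaxel-resistant cells (adjusted p = 0.204), and the first was lost in 13 of 22 alternatives, including those without paclitaxel-resistant replicate 1 or 2, docetaxel-resistant replicate 2 or any 1 sensitive array (adjusted p between 0.00551 and 0.170). CD44, the hyaluronan receptor, averaged 1060 ± 126, 860 ± 19.6 and 1216 ± 122 in paclitaxel-resistant, docetaxel-resistant and sensitive cells (SD, n = 3 each). Its difference from sensitive cells was -0.20 ± 0.17 (adjusted p = 0.478) in paclitaxel-resistant and -0.54 ± 0.17 (adjusted p = 0.0438) in docetaxel-resistant cells. The CD44 call was lost in 11 of 22 alternatives, including those without sensitive replicate 2 or 3, any 1 docetaxel-resistant array or paclitaxel-resistant replicate 3, with adjusted p between 0.00795 and 0.978, and its 8 probe sets ran from -0.58 to 0.14 in that comparison. CD47, a thrombospondin receptor that associates with integrins, differed by -0.42 in both lines and was not called, and NCAM1 lay below the median intensity in every group.

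**Figure D3:**
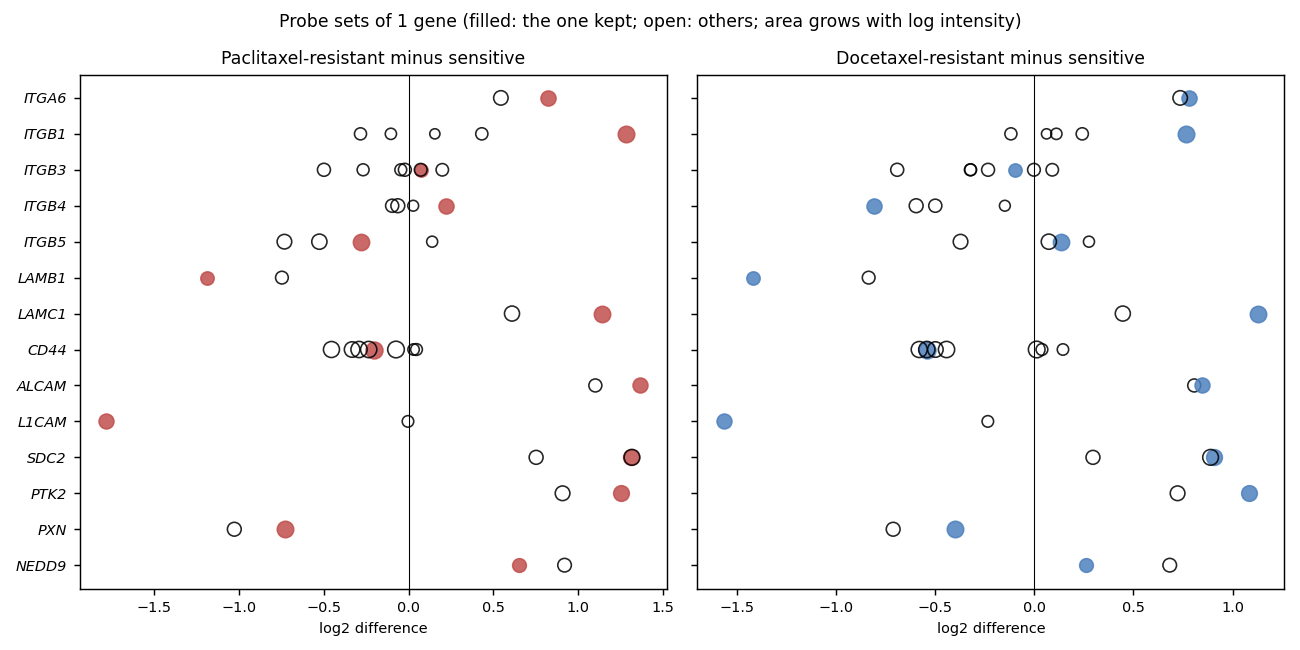
Log2 differences from sensitive cells for each probe set of 14 adhesion genes that have more than 1, in the paclitaxel-resistant and the docetaxel-resistant line. Filled points are the probe sets kept for the gene, open points the others, and the area grows with intensity; the probe sets of ITGA6, LAMB1 and PTK2 lie on 1 side of 0 in both lines, while those of ITGB1, CD44 and L1CAM spread to values near 0.

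The focal adhesion proteins also split, with PTK2 and NEDD9 higher and PXN and ILK lower among the 7 measured in paclitaxel-resistant cells, and PTK2 higher and ILK lower in docetaxel-resistant cells. PTK2, the focal adhesion kinase, had intensities of 448, 377 and 306 in paclitaxel-resistant and 288, 350 and 430 in docetaxel-resistant cells, against 207, 87.9 and 159 in sensitive cells. All resistant arrays lay above the sensitive ones, with differences of 1.25 ± 0.19 (adjusted p = 0.00087) and 1.08 ± 0.19 (adjusted p = 0.00221) in paclitaxel-resistant and docetaxel-resistant cells. A second PTK2 probe set rose by 0.91 (adjusted p = 0.00752) and 0.72 (adjusted p = 0.0260).

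ILK, a pseudokinase that joins integrin tails to the parvins, averaged 892 ± 156 in paclitaxel-resistant and 996 ± 20.1 in docetaxel-resistant cells, against 1485 ± 46.6 in sensitive cells (SD, n = 3 each). No resistant array overlapped a sensitive one. The difference was -0.74 ± 0.16 (adjusted p = 0.00641) and -0.62 ± 0.16 (adjusted p = 0.0174) in the lines in that order, and in docetaxel-resistant cells the call was lost without docetaxel-resistant replicate 2 or 3 or sensitive replicate 2 or 3 (adjusted p between 0.00437 and 0.136 over the alternatives). PXN, the scaffold paxillin, averaged 489 ± 26.2 in paclitaxel-resistant, 646 ± 25.7 in docetaxel-resistant and 813 ± 64.9 in sensitive cells (SD, n = 3 each). It fell by 0.73 ± 0.14 in paclitaxel-resistant cells (adjusted p = 0.00331) and differed by -0.40 ± 0.14 in docetaxel-resistant cells (adjusted p = 0.0639), where its second probe set fell by 0.71 (adjusted p = 0.0461).

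NEDD9, a docking protein of the same family as BCAR1, differed from sensitive cells by 0.65 ± 0.21 (adjusted p = 0.0423) in paclitaxel-resistant and 0.26 ± 0.21 (adjusted p = 0.424) in docetaxel-resistant cells. The NEDD9 call was lost in 12 of 21 alternatives, among them those without any 1 paclitaxel-resistant array, sensitive replicate 1 or 2 or docetaxel-resistant replicate 1 or 2, with adjusted p between 0.0124 and 0.153. Its second probe set rose in both lines, by 0.92 (adjusted p = 0.0114) and 0.68 (adjusted p = 0.0499). The actin linkers were not called: TLN1, talin, differed by -0.03 and -0.10, VCL, vinculin, by -0.39 (adjusted p = 0.0828) and -0.01, and the LIM protein ZYX by 0.31 and -0.16, in paclitaxel-resistant and docetaxel-resistant cells.

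The stretches of 250 bases upstream of the annotated start (RefSeq, GRCh38.p14) are given for LAMC1 and MCAM, which rose, and LAMB1 and L1CAM, which fell, because these genes moved by at least 1 on the log2 scale in the same direction in both lines. PTK2, which moved likewise, is not printed. L1CAM has 2 annotated starts in the table, and the window of the first is shown, which overlaps that of the second. Capitals mark the GC box GGGCGG or its reverse complement, the element bound by SP family factors, and matches that overlap run together. LAMC1 lies at chr1:183023170-183023419 on the plus strand, MCAM at chr11:119317131-119317380, LAMB1 at chr7:108003162-108003411 and L1CAM at chrX:153875945-153876194, the last 3 on the minus strand.
LAMC1: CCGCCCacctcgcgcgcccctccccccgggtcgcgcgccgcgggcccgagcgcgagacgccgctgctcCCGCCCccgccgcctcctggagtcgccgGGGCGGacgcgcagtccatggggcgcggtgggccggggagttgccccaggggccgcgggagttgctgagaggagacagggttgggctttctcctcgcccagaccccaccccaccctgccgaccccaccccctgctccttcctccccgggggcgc
MCAM: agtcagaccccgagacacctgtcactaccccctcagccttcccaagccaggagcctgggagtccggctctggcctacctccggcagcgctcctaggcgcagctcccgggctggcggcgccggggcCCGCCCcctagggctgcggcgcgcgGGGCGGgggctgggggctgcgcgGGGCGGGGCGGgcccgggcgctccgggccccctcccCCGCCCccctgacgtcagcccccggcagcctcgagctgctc
LAMB1: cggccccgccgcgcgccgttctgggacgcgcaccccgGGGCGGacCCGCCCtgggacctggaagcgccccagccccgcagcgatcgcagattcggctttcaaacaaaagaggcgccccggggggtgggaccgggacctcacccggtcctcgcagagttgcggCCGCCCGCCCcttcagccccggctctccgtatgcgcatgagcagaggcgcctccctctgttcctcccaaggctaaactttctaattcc
L1CAM: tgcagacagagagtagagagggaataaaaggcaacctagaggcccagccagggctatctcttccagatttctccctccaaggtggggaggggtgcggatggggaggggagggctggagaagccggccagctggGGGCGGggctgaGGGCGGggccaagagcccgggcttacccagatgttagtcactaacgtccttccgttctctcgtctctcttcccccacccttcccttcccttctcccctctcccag
The windows held 3 GC boxes in LAMC1, 5 in MCAM, 4 in LAMB1 and 2 in L1CAM, and 42.6% of all 35116 promoters of this length hold at least 1. The GC content was 79.6% in LAMC1, 79.6% in MCAM, 70.4% in LAMB1 and 62.4% in L1CAM, beside a median of 58.0% over all promoters. CpG dinucleotides numbered 32, 26, 28 and 8 in the same order, beside a median of 11. None of the 4 windows held the CCAAT box on either strand, which 32.0% of all promoters hold. None held the letters of the TATA box, searched as TATAAA and present in 10.7% of promoters, or those of the AP-1 site, searched as TGACTCA and present in 4.20%. Of the 42 measured genes, 32 had a promoter in the table used.

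Genes that work with these adhesion genes were counted in lists named by function. The lists were also chosen with earlier results of these data known, so their shares are descriptions and not tests. Among 28 measured integrin ligands, 7 rose and 5 fell in paclitaxel-resistant cells and 6 rose and 7 fell in docetaxel-resistant cells, which is 42.9% and 46.4% of them, where 21.6% and 21.1% of all genes were called. SPARC, a matrix glycoprotein, had intensities of 112, 93.9 and 96.3 in paclitaxel-resistant and 215, 275 and 263 in docetaxel-resistant cells, against 16.2, 10.2 and 20.3 in sensitive cells. It rose by 1.90 ± 0.14 (adjusted p = 6.55e-06) and 2.99 ± 0.14 (adjusted p = 1.03e-07), and paclitaxel-resistant minus docetaxel-resistant was -1.09 ± 0.14 (adjusted p = 0.00223). FN1, fibronectin, the ligand of the receptor that holds ITGA5, had intensities of 978, 815 and 1110 in paclitaxel-resistant and 522, 477 and 497 in docetaxel-resistant cells, against 1346, 1849 and 1529 in sensitive cells. It fell by 0.69 ± 0.19 (adjusted p = 0.0253) and 1.69 ± 0.19 (adjusted p = 0.000143), and the resistant lines differed by 1.00 ± 0.19 (adjusted p = 0.0241).

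Further ligands changed in both lines. The tenascin TNC fell by 1.50 and 1.36 and the leukocyte integrin ligand ICAM1 by 1.76 and 2.43, while EDIL3, which binds ITGAV integrins, rose by 1.65 and 1.51 and the matricellular protein CCN1 by 1.35 and 1.49, with adjusted p of at most 0.000203 for each. The collagen chain COL6A2 rose in paclitaxel-resistant cells by 0.92 (adjusted p = 0.00337) and differed by -0.43 in docetaxel-resistant cells (adjusted p = 0.116), and the lines differed from each other by 1.34 ± 0.18 (adjusted p = 0.00263). FBN1, fibrillin, differed by 0.71 (adjusted p = 0.0846) in paclitaxel-resistant and rose by 1.98 (adjusted p = 0.000414) in docetaxel-resistant cells, with -1.27 ± 0.27 between the lines (adjusted p = 0.0345). FBN1 also stands in the fibroblast marker list, of 11 genes, in which PDGFRB rose in both lines, by 1.11 (adjusted p = 0.00424) and 1.04 (adjusted p = 0.00649), COL6A3 fell in both, by 1.05 (adjusted p = 0.00261) and 1.36 (adjusted p = 0.000563), and the other 8 were not called in either line.

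Among 10 further measured laminin and basement membrane genes, 1 rose in paclitaxel-resistant cells, the proteoglycan AGRN, by 1.17 ± 0.23 (adjusted p = 0.00378), and 2 rose in docetaxel-resistant cells, the type IV collagen chains COL4A5, by 1.80 ± 0.23 (adjusted p = 0.000281), and COL4A6, by 0.98 ± 0.20 (adjusted p = 0.00468). These are 10% and 20% of the list, beside 21.6% and 21.1% of all genes. COL4A5 had intensities of 40.6, 16.3 and 40.5 in paclitaxel-resistant and 112, 123 and 126 in docetaxel-resistant cells, against 23.2, 10.3 and 28.3 in sensitive cells. Its paclitaxel-resistant minus docetaxel-resistant difference was -1.44 ± 0.23 (adjusted p = 0.00898). Of 7 integrin chains and integrin-like genes outside the set, 0 were called in paclitaxel-resistant cells by limma, with 0 at an unadjusted p under 0.05. Of all genes, 21.6% were called there and 32.5% had such an unadjusted p. In docetaxel-resistant cells 1 of the 7 rose, the integrin-like gene ITGBL1, by 1.04 ± 0.26 (adjusted p = 0.0143), where 21.1% of all genes were called. A list of 7 genes is too short to set against these shares.

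Among 28 adaptors and actin linkers, 4 rose and 8 fell in paclitaxel-resistant cells and 5 rose and 6 fell in docetaxel-resistant cells, which is 42.9% and 39.3% of them, where 21.6% and 21.1% of all genes were called. LPXN, leupaxin, a relative of paxillin, had intensities of 96.3, 34.1 and 80.2 in paclitaxel-resistant and 83.6, 116 and 94.5 in docetaxel-resistant cells, against 700, 337 and 512 in sensitive cells. It fell by 2.70 ± 0.26 (adjusted p = 3.41e-05) and 2.31 ± 0.26 (adjusted p = 0.000121). Tensin TNS1, which links beta chains to actin, fell by 1.42 (adjusted p = 2.45e-05) and 0.74 (adjusted p = 0.00209), and the lines differed by -0.68 ± 0.13 (adjusted p = 0.0224). The LIM proteins PDLIM1 and CSRP1 fell in both lines, by 0.85 and 0.51 and by 0.71 and 0.69, and PDLIM5 rose by 1.31 (adjusted p = 0.00165) and 1.61 (adjusted p = 0.000484).

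Of 39 adhesion signalling genes, 8 rose and 0 fell in paclitaxel-resistant cells and 7 rose and 1 fell in docetaxel-resistant cells, which is 20.5% in each, beside the 21.6% and 21.1% of all genes. Higher calls alone take in 10.9% of all genes in each comparison. The adaptor SHC1 rose by 0.90 (adjusted p = 0.000744) and 0.64 (adjusted p = 0.00589), the kinase ROCK2, which acts on actomyosin, by 0.84 (adjusted p = 0.00203) and 0.65 (adjusted p = 0.00894), and the phosphatase PTPN12 by 1.42 (adjusted p = 0.00231) and 0.82 (adjusted p = 0.0403). The GTPase RAC2 rose in paclitaxel-resistant cells by 0.59 (adjusted p = 0.00775), and DOCK1, an exchange factor for RAC1, in docetaxel-resistant cells by 0.71 (adjusted p = 0.0110). FYN, a kinase of the SRC family, rose in docetaxel-resistant cells by 0.50 (adjusted p = 0.0137) and differed by -0.09 in paclitaxel-resistant cells, with -0.59 ± 0.12 between the lines (adjusted p = 0.0323).

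Of 19 further tetraspanins and partners, 3 rose and 7 fell in paclitaxel-resistant cells and 3 rose and 5 fell in docetaxel-resistant cells, which is 52.6% and 42.1%, beside 21.6% and 21.1% of all genes. Lower calls alone take in 10.7% and 10.2% of all genes in the 2 comparisons. CD82, a tetraspanin known as a suppressor of metastasis, had intensities of 81.7, 82.0 and 86.7 in paclitaxel-resistant and 78.0, 78.8 and 77.9 in docetaxel-resistant cells, against 271, 265 and 240 in sensitive cells. It fell by 1.49 ± 0.15 (adjusted p = 4.38e-05) and 1.67 ± 0.15 (adjusted p = 2.11e-05). TSPAN14 fell by 1.26 (adjusted p = 0.00034) and 0.82 (adjusted p = 0.00476), TSPAN31 by 1.29 (adjusted p = 0.00165) and 0.97 (adjusted p = 0.00866), and SLC3A2, the heavy chain of amino acid transporters that binds integrin beta chains, by 0.68 (adjusted p = 0.0271) and 1.04 (adjusted p = 0.00286). TSPAN4 rose in both lines, by 0.62 (adjusted p = 0.0137) and 0.68 (adjusted p = 0.00861). TSPAN9 fell in paclitaxel-resistant cells by 0.89 (adjusted p = 0.00271), and TSPAN3 rose in docetaxel-resistant cells by 0.52 (adjusted p = 0.0171), where the lines differed by -0.63 ± 0.13 (adjusted p = 0.0368).

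Of 27 further adhesion molecules, 3 rose and 1 fell in paclitaxel-resistant cells and 2 rose and 2 fell in docetaxel-resistant cells, which is 14.8% in each, below the 21.6% and 21.1% of all genes. PODXL, a sialomucin, fell by 1.22 (adjusted p = 0.000191) and 0.92 (adjusted p = 0.00123). CD24 rose by 0.80 (adjusted p = 0.0139) and 1.41 (adjusted p = 0.00054), and CD99 by 0.52 (adjusted p = 0.0154) and 0.85 (adjusted p = 0.00104). BCAM, a laminin receptor of the immunoglobulin family, rose in paclitaxel-resistant cells by 1.12 (adjusted p = 0.00462), and NECTIN2 fell in docetaxel-resistant cells by 0.64 (adjusted p = 0.0120).

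**Figure D4:**
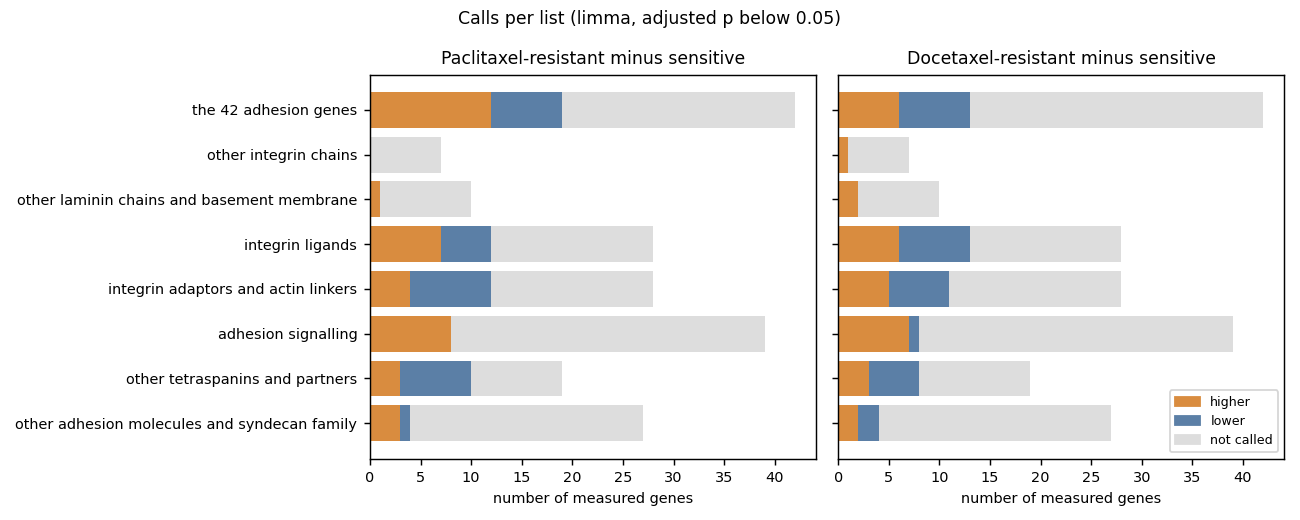
Number of measured genes called higher, called lower and not called in each adhesion list, for the paclitaxel-resistant and the docetaxel-resistant line against sensitive cells. Ligands and adaptors hold calls in both directions, tetraspanins more lower than higher calls (7 against 3 and 5 against 3), and adhesion signalling genes nearly all higher calls (8 of 8 and 7 of 8). The signalling list was called at 20.5% in each line, beside 21.6% and 21.1% of all genes.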

How the data were processed

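RNA of 9 samples of the MDA-MB-231 line, 3 passages in each of 3 groups, was measured on Affymetrix HU133A arrays. The deposited values are intensities on a linear scale for 22283 probe sets, made by the authors with PLIER in Affymetrix Expression Console 1.1.2, per the submitters' processing notes. How background, normalization and detection were handled is not given in the sources used here. The 9 arrays limit the precision (median standard error of a log2 difference 0.16).

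After removal of 68 control probe sets, log2(intensity + 16) was taken from the deposited intensities. Array medians spread over 0.27, above the limit of 0.2, so arrays were quantile normalized over 22215 probe sets. Of these, 19065 name 1 gene in the platform annotation, 1043 several and 2107 none, and 19053 matched RefSeq by gene ID. The probe set with the highest mean stood for each of 11963 genes, 4310 of which had more than 1. limma 3.58.1 in R 4.3.3 fitted 3 group means in 1 model (lmFit, then eBayes with 6 residual degrees of freedom and a prior of 5.37) and took 3 contrasts. Values of single probe sets come from the same fit over all 22215. The fit was tested on simulated data in which spread was drawn independently for each gene, so the shared within-group axis of these arrays was not covered. Intensities in the text are as deposited, before this normalization.

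Of the 42 genes, those given by array were called in at least 1 contrast with a difference of at least 0.75 there and a mean of at least 50 in the higher group, and of each further list up to 4 called genes per contrast with the smallest adjusted p were named. The genes and lists were chosen with earlier results of these data known. Nothing in the labels says that replicate numbers pair the samples: the deviations of 9 same-numbered pairs correlated with r between -0.45 and 0.34, over 0.1 in 3, and samples were not treated as paired. Alternatives covered the added constant, normalization, filter, choice of probe sets, test, block and left-out arrays.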

Additional observations from a re-analysis of the deposited data

Results flagged for a closer look

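ITGB4 was picked out because the 2 resistant lines differed from each other in a test of that difference itself. Its mean intensity was 218 ± 52.3 in paclitaxel-resistant and 108 ± 8.74 in docetaxel-resistant cells, against 181 ± 45.1 in sensitive cells (SD, n = 3 each), and paclitaxel-resistant minus docetaxel-resistant was 1.03 ± 0.18 (limma adjusted p = 0.0160). The 3 paclitaxel-resistant arrays lay above the 3 docetaxel-resistant arrays, which is part of the same difference, and 20.5% of all genes separated the lines in this way. The call was lost in 11 of 22 alternatives, and the other 3 ITGB4 probe sets were not called.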

How the results depend on the processing

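Of the genes called, 12 of 19 in paclitaxel-resistant and 8 of 13 in docetaxel-resistant against sensitive cells were called under every alternative that measured them, among them ITGA5, LAMB1, LAMC1, MCAM, L1CAM, SDC2 and PTK2 in both, and 0 of 1 between the resistant lines. Leaving out 1 array gave 14 to 19 calls in paclitaxel-resistant against sensitive, 10 to 14 in docetaxel-resistant against sensitive and 0 to 1 between the resistant lines. Without probe sets that can match several transcripts or genes (names ending in _x_at or _s_at), which left 33 of the 42 genes, these counts were 12, 8 and 0. Of the genes called, MCAM, CD151, LAMB2, LAMA5, ITGA3 and ITGB2 each have only 1 probe set, of that kind, and were not measured in that setting. In that setting ITGB1 turned to -0.28 (adjusted p = 0.232) in paclitaxel-resistant minus sensitive and CD44 to 0.012 (adjusted p = 0.978) in docetaxel-resistant minus sensitive, since other probe sets then stood for them. Between the resistant lines, limma called 0 genes with 1 added, without normalization, or, chosen after seeing the data, without sensitive replicate 2 and docetaxel-resistant replicate 3 together, the arrays of extreme median, where 8, 7 and 8 had an unadjusted p under 0.05, beside 10 in the fit reported and 5 without those probe sets. It called 2 with 64 added, LAMB3 and PXN, and 2 with the mean of a gene's probe sets, LAMB3 and SDC1. ITGB4 was not called in either setting. With a trended and robust spread it called 2, ITGB4 and LAMB3. Among genes at or above the median level it called 3, ITGB4, LAMB3 and SDC1. The same 3 were called with the first within-group axis as a covariate, also chosen after seeing the data. The causes were not tested. The axis came from the same deviations, so that fit lowers the spread and leaves each difference unchanged. With the replicate block the counts were 17, 13 and 1, and ALCAM (adjusted p = 0.0795) and NEDD9 (adjusted p = 0.0586) lost their calls in paclitaxel-resistant cells. Over all genes, the 2586 calls in paclitaxel-resistant against sensitive were 1494 without those probe sets. The 2529 in docetaxel-resistant against sensitive were 1435 without them, 1353 without the 2 arrays and 1654 without docetaxel-resistant replicate 3. The 238 between the lines were 79 with 1 added, 146 without normalization, 110 without those probe sets, 145 with the block, 139 without the 2 arrays, 624 with the axis and 82 to 296 with 1 array left out. Low intensity limits the 7 genes below the median intensity in every group.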
